A study of Mus musculus with 23 samples.

Results

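Type I interferon-stimulated genes were examined in mouse embryonic fibroblasts (MEFs) and CD8+ T cells that lacked the chromatin regulators Ezh2, Snf5 or both. The list held 39 genes in 6 groups by role: RNA and DNA sensors, the OAS family, transcription factors, the ISG15 system, antiviral effectors and other interferon-induced genes. A gene counted as measured where a probe set named it alone, and the probe set with the highest mean over all arrays stood for it. By this rule 34 of 39 members were measured, among 12393 genes in all. Oas1g, Isg15, Samd9l, Ifi44 and Xaf1 had no such probe set and were not analysed here.

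Type I interferons are secreted when a cell detects foreign or misplaced nucleic acid, and they bind a receptor present on nearly every nucleated cell. The receptor kinases Jak1 and Tyk2 then activate Stat2, which joins Irf9 in the ISGF3 complex, and this complex switches on genes that carry an interferon-stimulated response element (ISRE). The products of these genes detect viral RNA and DNA, degrade RNA, block translation or trap virus particles, and several of them, Irf7, Stat2 and Irf9 among them, raise the next round of the response.

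The MEFs came from E13.5 embryos. They were wild type, lacked Ezh2 or lacked Snf5 together with Ezh2 after conditional inactivation, with 3 arrays per mutant genotype and 3 wild-type arrays named as controls for each. The T cell arrays held purified CD8+ T cells of wild-type mice (6 arrays) and CD8+ cells isolated from lymphomas that lacked Snf5 (5 arrays). These mice were 10 to 15 weeks old. Ezh2 is the histone methyltransferase of Polycomb repressive complex PRC2, and Snf5, the product of Smarcb1, belongs to the core of the chromatin remodeller SWI/SNF. No MEF group lacked Snf5 alone, the lymphomas were not deleted for Ezh2, and no group was treated with interferon. The sources used here do not give the means of gene inactivation, the strain or the number of animals or cultures. Samples are titled as biological replicates, but no label says that each came from a separate animal or culture, so p-values measure the spread between these samples, which may be technical.

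All levels are log2 RMA intensities. The median level of an array was 7.26 to 7.32 for MEFs and 8.04 to 8.37 for T cells, and since the authors summarised MEF and T cell arrays separately, levels were not compared across them. In the second MEF set the 3 controls were repeats of those in the first (probe-set differences between same-numbered arrays had an SD of 0.0266 to 0.0287, against 0.141 to 0.163 for different numbers), so both MEF genotypes were compared with the same 3 control hybridisations. Smarcb1 stood at 9.33, 9.45 and 9.45 in wild-type MEFs and at 7.00, 6.79 and 7.05 in Snf5 Ezh2-deficient MEFs. On the T cell arrays it ranged from 10.38 to 11.48 in wild-type cells and was 8.30, 8.49, 5.81, 5.64 and 8.67 in the lymphomas. Ezh2 fell from 7.91, 7.85 and 7.86 to 5.81, 5.65 and 5.63 in Ezh2-deficient and to 6.49, 5.94 and 6.21 in Snf5 Ezh2-deficient MEFs, and lymphomas held it 2.98-fold above wild-type T cells (adjusted p = 0.0133). Each label thus matched its targeted gene, although the position of the probes relative to the deleted exons was not checked here.

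Wild-type CD8 arrays 1 and 6 stood apart from the other 4. Cd8a, a defining gene of these cells, was at 10.73 and 10.59 on them and at 13.32 to 13.64 on wild-type arrays 2 to 5, and at 13.12 to 13.55 in the lymphomas. The mean over 14 macrophage markers was 11.15 and 11.07 on arrays 1 and 6, from 5.82 to 7.00 on wild-type arrays 2 to 5 and from 6.92 to 9.85 in the lymphomas. The mean over 6 B cell markers was 11.09 and 10.88 on arrays 1 and 6, from 7.86 to 8.80 on the others and from 6.68 to 7.32 in the lymphomas. Counts in the lymphomas are therefore also given without these 2 arrays, as are members whose call ended without them. Wild-type arrays 2 to 5 were not alike either. Cd4 was at 9.63 and 11.11 on arrays 2 and 5 and at 6.58 and 6.25 on arrays 3 and 4. The MHC class II gene H2-Aa was at 12.05 and 12.08 on arrays 2 and 5 and at 8.48 and 8.49 on arrays 3 and 4. Leaving out arrays 1 and 6 thus did not make the controls uniform. In MEFs the fibroblast markers were high (list means of 9.98 to 10.89) and the CD8 T cell list was at 5.73 to 5.95.

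To show what members share in sequence, the window from 250 bases before to 50 bases after each transcription start (RefSeq, GRCm38.p6) was searched on both strands for the ISRE core (GAAA, then any 2 bases, then GAAA) and for the STAT dimer motif GAS, TTCNNNGAA, which reads the same on both strands. A window was found for 28 of 39 members, 23 of them measured. The ISRE core was in 11 of 28 members (39.3%), against 3.99% of all 27025 genes with a window, and the GAS motif was in 8 of 28 (28.6%), against 9.55%. Of the 16 members with a window that rose in Snf5 Ezh2-deficient MEFs 7 held the ISRE core, and of the 6 that were not called 2 did. A match is a description of the letters in this window, and a factor's binding was not measured. The stretches below, upstream of the start and read 5′ to 3′, belong to members on which the results turn, with the matches in capitals.
Ifit1, 2 ISRE matches on the reverse strand, chr19:34640765-34640833 (+ strand): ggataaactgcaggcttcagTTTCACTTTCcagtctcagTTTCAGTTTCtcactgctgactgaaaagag
Ifit3, of the same cluster, with the same 2 motif matches, chr19:34583353-34583436 (+ strand): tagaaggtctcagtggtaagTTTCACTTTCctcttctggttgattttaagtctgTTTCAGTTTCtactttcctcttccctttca
Oas1a, overlapping ISRE matches close to the start, chr5:120907526-120907565 (- strand): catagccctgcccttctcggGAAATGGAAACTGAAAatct
Rsad2, a single ISRE match on the reverse strand, chr12:26456543-26456592 (- strand): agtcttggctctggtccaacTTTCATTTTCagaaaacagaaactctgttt
Bst2, overlapping ISRE matches, chr8:71537567-71537622 (- strand): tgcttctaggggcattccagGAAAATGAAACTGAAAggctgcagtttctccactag
Irf1, a GAS match, chr11:53769904-53769952 (+ strand): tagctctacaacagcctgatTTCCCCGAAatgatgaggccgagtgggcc
In Bst2 a GAS match overlaps the first ISRE match. Ifit1 and Ifit3 thus held the same pair of ISRE matches, both on the reverse strand, while the window of Ifit2, the third gene of this cluster, held a GAS match and no ISRE core.

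Snf5 Ezh2-deficient MEFs were set against wild-type MEFs to ask how loss of both regulators altered the interferon-stimulated genes. Of 34 measured members 22 rose, 1 fell and 11 were not called, where a call is an adjusted p under 0.05 by limma over all probe sets. Over all genes 13.2% rose and 14.3% fell (27.5% in either direction). The median change of the members was 0.75 on the log2 scale, against -0.00 for all genes. In 23 members all 3 mutant arrays lay above all 3 wild-type arrays, as they did for 21% of all genes, and in 2 (Ifit2 and Ifi204) they lay below, as for 22.9%. With 3 arrays against 3 an exact permutation test cannot give a p under 0.1, so the limma test is the one reported. RNA was measured over all cells of a sample, so a change in the RNA per cell and a change in the share of responding cells cannot be told apart.

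All 4 transcription factors rose. Irf9, the DNA-contacting subunit of ISGF3, was at 6.95, 6.95 and 6.79 on the wild-type arrays and at 8.02, 8.39 and 8.73 on the Snf5 Ezh2-deficient arrays, a rise of 1.48 (SE 0.189, adjusted p = 0.000315). Its partner Stat2 went from 6.30, 6.44 and 6.42 to 7.26, 7.81 and 7.78, a rise of 1.23 (SE 0.139, adjusted p = 0.000149). The groups did not overlap for either gene, and in both the lowest mutant array was well above the highest control. Irf7, which drives the amplification of interferon gene transcription, was at 5.81, 5.80 and 5.91 in wild-type and at 6.29, 6.65 and 7.05 in mutant cells (0.83, SE 0.157, adjusted p = 0.00325). Irf1, a factor with its own GAS-bearing promoter shown above, went from 9.08, 9.27 and 9.25 to 9.84, 9.97 and 10.14 (0.79, SE 0.0871, adjusted p = 0.000137). These 4 calls held under every setting that was run.

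Of 6 sensors 3 rose, all of them detectors of double-stranded RNA. Ifih1, which encodes the cytosolic helicase MDA5, was at 7.39, 7.45 and 7.15 in wild-type and at 8.50, 8.90 and 9.01 in mutant MEFs (1.48, SE 0.15, adjusted p = 7.99e-05). Its relative Dhx58 went from 6.00, 5.94 and 6.05 to 6.51, 6.90 and 7.30 (0.91, SE 0.16, adjusted p = 0.00206). Eif2ak2, the kinase PKR that halts translation when it binds double-stranded RNA, rose by 0.53 (adjusted p = 0.00171), and again no mutant array was as low as a control. The other 3, the Z-nucleic acid sensor Zbp1 and the DNA-binding PYHIN genes Ifi204 and Ifi209, were among the lowest 25% of values on all 9 MEF arrays, with changes of 0.13, -0.20 and 0.09.

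In the OAS family, enzymes that make oligoadenylates to activate the nuclease RNase L and relatives of these enzymes, 3 of 5 measured members rose. Oasl2 was at 4.95, 4.82 and 4.70 in wild-type cells, in the lowest 25% of the values, and at 6.25, 7.03 and 8.76 in the mutant cells, a rise of 2.52 (SE 0.496, adjusted p = 0.00387) from near the floor. The 3 mutant arrays spread over more than the distance of the lowest of them to the controls. Oas1a rose by 1.06 (SE 0.233, adjusted p = 0.00688), from 7.56, 7.76 and 7.79 to 8.20, 8.76 and 9.35. Oasl1 rose by 0.28, from 5.94, 5.86 and 5.85 to 6.07, 6.15 and 6.27 (adjusted p = 0.0197), a call that ended without any single wild-type array (adjusted p = 0.0508 to adjusted p = 0.0571), without mutant array 3 (adjusted p = 0.0677) and under quantile normalisation (adjusted p = 0.0522). Oas2 (0.03) and Oas3 (0.04) were not called.

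Both measured genes of the ISG15 system rose. Usp18, the protease that strips ISG15 from proteins and dampens receptor signalling, was at 6.24, 5.76 and 6.15 in wild-type and at 7.95, 8.57 and 9.62 in mutant MEFs, a 6.34-fold rise (log2 2.66, SE 0.436, adjusted p = 0.00136). Trim25, a ubiquitin and ISG15 ligase, rose by 0.68, from 8.10, 8.40 and 8.57 to 8.81, 8.91 and 9.40 (adjusted p = 0.00891).

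The antiviral effectors were the most divided group, with 4 of 10 higher, 1 lower and 5 not called. Ifit1, which binds the caps of foreign RNA, had the largest change of all members: the wild-type arrays were at 5.72, 5.99 and 5.85 and the mutant arrays at 9.34, 10.13 and 10.98, a 19.7-fold rise (log2 4.30, SE 0.503, adjusted p = 0.000186). Bst2, the membrane protein tetherin that holds budding virus at the cell surface, was at 7.34, 7.23 and 7.31 and then at 9.08, 9.66 and 10.52 (5.5-fold, log2 2.46, SE 0.331, adjusted p = 0.00042). Adar, which edits double-stranded RNA and thereby limits its detection, rose by 0.72 (adjusted p = 0.00132). Rsad2, the nucleotide-modifying enzyme viperin, rose by 0.33 from 6.69, 6.68 and 6.69 to 6.82, 7.19 and 7.04 (adjusted p = 0.0164), a call that was lost on leaving out control 3 (adjusted p = 0.0594) or for the mean of its probe sets (adjusted p = 0.104). Mx1 and Cmpk2 were among the lowest 25% of values on all MEF arrays (changes of 0.03 and 0.04), and Mx2 (0.14) and the exonuclease Isg20 (0.29) were not called either.

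The Ifit genes lie close together on chromosome 19, Ifit3 next to Ifit2 and 3 protein-coding genes from Ifit1, and they did not move together. Ifit2 was at 8.22, 8.28 and 8.36 in wild-type MEFs and at 7.29, 7.32 and 7.65 in Snf5 Ezh2-deficient MEFs, so that it fell by 0.86 (SE 0.0991, adjusted p = 0.000167) with no overlap between the groups, and it was singled out after its values were seen. Ifit3, with the same pair of ISRE cores as Ifit1, was at 6.89, 7.52 and 7.34 in wild-type and at 7.53, 8.03 and 8.97 in mutant cells. Its difference of 0.92 (SE 0.338, adjusted p = 0.0707) was not called. It was called with replicate number as a block (adjusted p = 0.026) and without mutant array 1 (adjusted p = 0.0211). Of another pair of direct neighbours, Rsad2 was called and Cmpk2, low on all MEF arrays, was not. The change of Rsad2 was 0.33, with 0.04 and 0.22 on its other probe sets, and the difference between these neighbours was not tested. Oasl1 and Oasl2 were both called at unlike sizes.

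Of the 7 other interferon-induced genes 6 rose, the exception being the nuclear body gene Sp100 (0.07), whose values were in the lowest 25% on all MEF arrays. Rtp4, a chaperone of membrane receptors, was at 6.72, 6.65 and 6.51 and then at 8.12, 8.80 and 9.77 (2.27, SE 0.425, adjusted p = 0.00295). Ifi27l2a, a small interferon-induced membrane protein, was at 4.57, 4.81 and 5.10, in the lowest 25% of the values, and then at 5.72, 6.13 and 8.40. Its change of 1.92 rested largely on mutant array 3 (SE 0.532, adjusted p = 0.0227) and its call was lost on leaving out control 1 (adjusted p = 0.0738) or 2 (adjusted p = 0.0589). The ADP-ribosyltransferase gene Parp14 rose by 1.28 from 5.39, 5.54 and 5.28 to 6.28, 6.74 and 7.02 (adjusted p = 0.00219), and Lgals3bp, a secreted glycoprotein, by 1.26 from 8.84, 8.70 and 8.81 to 9.52, 10.05 and 10.56 (adjusted p = 0.0042). Ifi35 rose by 1.40 (adjusted p = 4.78e-05) and the torsin ATPase gene Tor3a by 0.51, from 5.69, 5.61 and 5.82 to 6.02, 6.29 and 6.34 (adjusted p = 0.00359). Across roles, 9 members were among the lowest 25% of values on all 3 wild-type MEF arrays, and of these Oasl2 and Ifi27l2a rose. The other 7 (Zbp1, Ifi204, Ifi209, Oas3, Mx1, Cmpk2 and Sp100) were as low on the mutant arrays, so a change in them could be hidden.

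**Figure D1:**
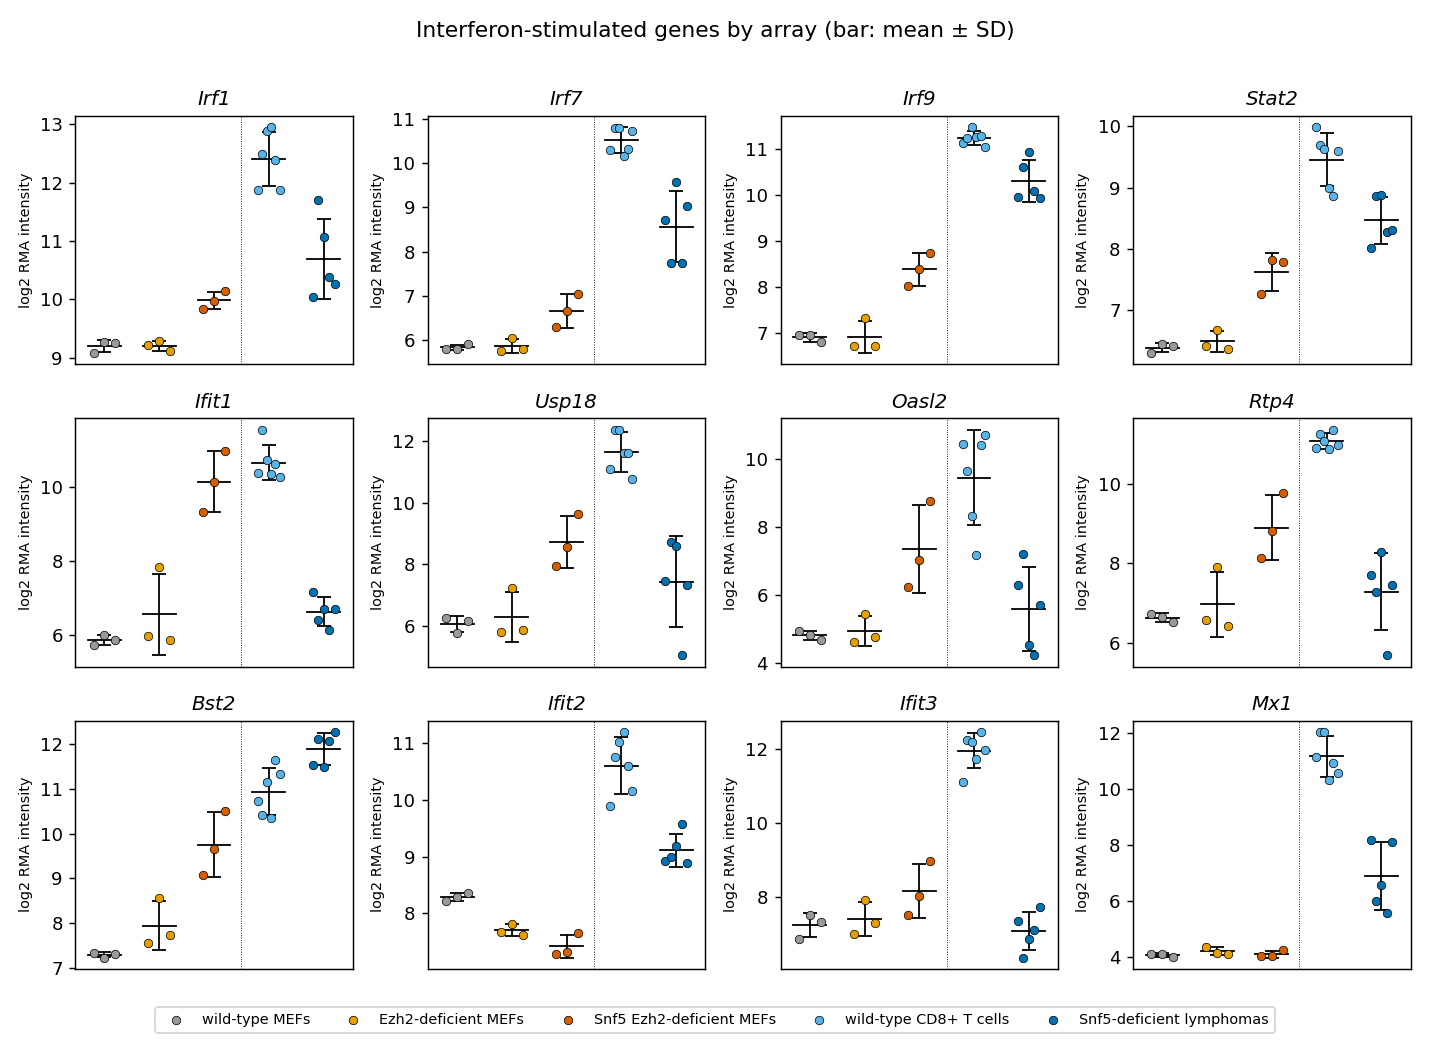
Log2 RMA intensity (y axis) of 12 interferon-stimulated genes on every array, with MEF groups left and T cell groups right of the dotted line; points are arrays and bars the mean ± SD. The 3 Snf5 Ezh2-deficient arrays of Ifit1 sit between 9.34 and 10.98, above all wild-type MEF arrays (5.72 to 5.99), and its 5 lymphoma arrays sit between 6.12 and 7.17, below all wild-type T cell arrays (10.27 to 11.56).

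The 3 Snf5 Ezh2-deficient arrays did not hold the members at the same level. The mean over all 34 members was 6.97, 7.30 and 7.66 on arrays 1, 2 and 3, against 6.37 to 6.39 on the wild-type arrays. Array 3 was the highest of the 3 for 25 of 34 members and array 1 the lowest for 29 of 34, while over all genes array 3 was the highest for 33% and array 1 the lowest for 28.6%. Ifit1 was 11.2-fold above the wild-type mean on array 1, 19.4-fold on array 2 and 35-fold on array 3. All 22 members that rose exceeded the wild-type mean on each of the 3 mutant arrays, which restates that their groups did not overlap and adds no further evidence. Without array 1 there were 24 members higher, without array 2 22 and without array 3 21, and without any single wild-type array 20.

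Loss of Ezh2 alone was compared with the same 3 wild-type controls. Of 34 members 1 rose, 1 fell and 32 were not called, and over all genes 1.02% rose and 2.47% fell (3.49% in either direction), so the members' share was near that of all genes. At an unadjusted p under 0.05 limma gave 4 higher and 1 lower. The median change was 0.13, against 0.00 for all genes, and in 9 members all Ezh2-deficient arrays lay above all controls, as for 15.7% of all genes. Ifit2 fell here as well, from 8.22, 8.28 and 8.36 to 7.67, 7.82 and 7.61, by 0.59 (SE 0.0991, adjusted p = 0.0168), and its call was lost on leaving out control 2 (adjusted p = 0.0625), control 3 (adjusted p = 0.0624) or array 1 of the mutants (adjusted p = 0.0603). Ifi209 rose by 0.34 (adjusted p = 0.0444) within the lowest 25% of the values, from 4.60, 4.39 and 4.54 to 4.83, 4.77 and 4.97, and this call ended without most single arrays and under several other settings (adjusted p = 0.052 to adjusted p = 0.142). None of the transcription factors was called, with changes of 0.00 for Irf1, 0.04 for Irf7, 0.01 for Irf9 and 0.10 for Stat2. A p that misses the threshold does not show that these genes were equal in both genotypes.

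Within the Ezh2-deficient group array 2 stood above the other 2 for 24 of 34 members, whereas over all genes it was the highest for 29.8%. Ifit1 was at 5.98, 7.83 and 5.85 on arrays 1, 2 and 3, Usp18 at 5.79, 7.22 and 5.85, Rtp4 at 6.56, 7.90 and 6.42 and Bst2 at 7.55, 8.56 and 7.73. On arrays 1 and 3 the first 3 of these genes were close to the wild-type level, and array 2 alone was above it. Across the 34 members, the excess of array 2 over the mean of arrays 1 and 3 correlated with the change in Snf5 Ezh2-deficient MEFs (Pearson r = 0.72, Spearman rho = 0.66), and across all 12393 genes it did not (r = 0.02, rho = -0.01). The same excess also correlated with the difference of Snf5 Ezh2-deficient array 3 from array 1. This held over the members (r = 0.57, rho = 0.70) and, less strongly, over all genes (r = 0.34, rho = 0.27). The fibroblast marker list was highest on array 2 as well, at 10.15, 10.69 and 9.98 on Ezh2-deficient arrays 1, 2 and 3. These correlations are over genes of the same arrays, which are not independent replicates, and are a description. The mean over 14 macrophage markers was 5.82, 6.17 and 5.82 on Ezh2-deficient arrays 1, 2 and 3 and from 5.99 to 6.17 on the wild-type arrays, and the part of such cells in the excess was not tested.

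Set directly against Ezh2-deficient MEFs, Snf5 Ezh2-deficient MEFs had 19 of 34 members higher and 1 lower, where 16.3% of all genes were higher and 13.6% lower (29.9% in either direction). The median difference was 0.71, against -0.03 for all genes. Ifit1 was 12.1-fold higher (log2 3.60, SE 0.503, adjusted p = 0.000558), and all 4 transcription factors were higher, Irf9 by 1.47, Stat2 by 1.13, Irf7 by 0.79 and Irf1 by 0.78 (adjusted p = 0.000141 to adjusted p = 0.00435). Oasl1, Trim25 and Rsad2, which differed from wild type, were not called against Ezh2-deficient cells (0.20, 0.41 and 0.05). The member that was lower was Ifi209 (-0.25, adjusted p = 0.0361), near the floor, and its call ended under many settings (adjusted p = 0.0527 to adjusted p = 0.118). Oas1a (0.72), Tor3a (0.38) and Ifi27l2a (1.87) were called here but lost the call without single arrays (adjusted p up to 0.129, 0.0635 and 0.0633).

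**Figure D2:**
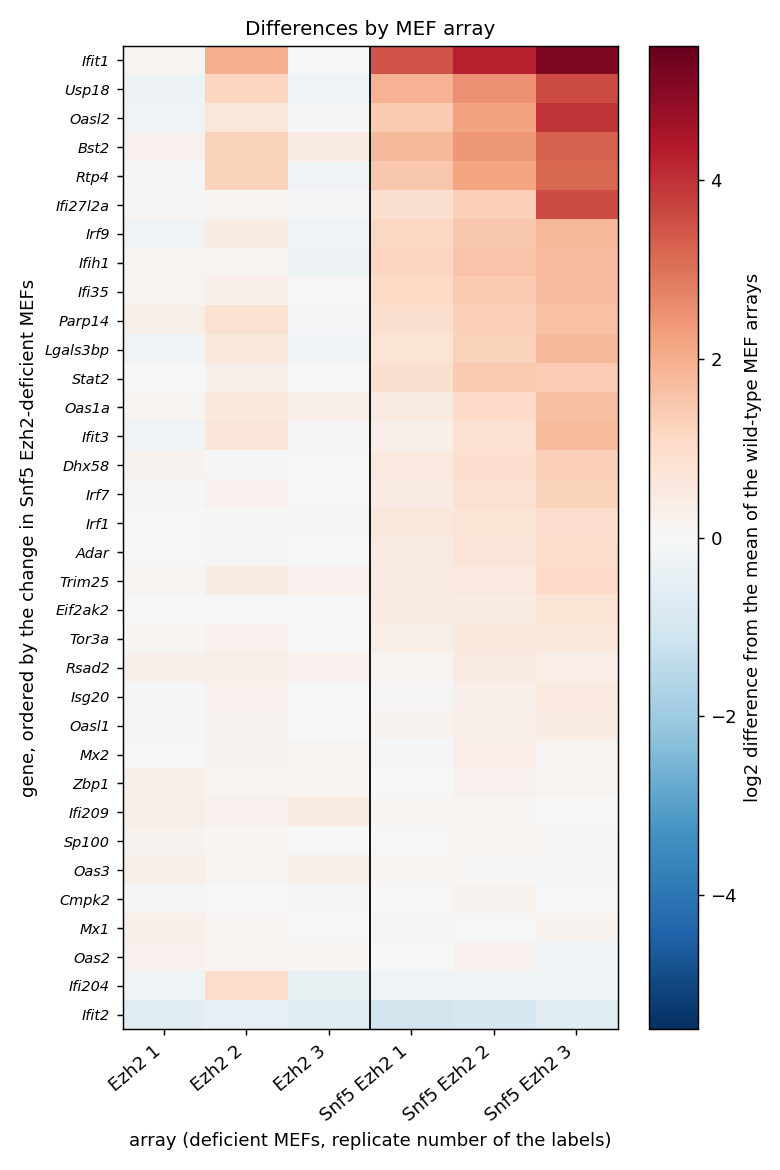
Log2 difference of each of 34 members (rows, ordered by their change in Snf5 Ezh2-deficient MEFs) from the wild-type mean on each mutant MEF array (columns); red is higher and blue lower. The upper rows are red on all 3 Snf5 Ezh2-deficient arrays and most on array 3, Ezh2-deficient array 2 is redder than arrays 1 and 3 in several of these rows, among them Ifit1, Usp18, Bst2 and Rtp4, and Ifit2 at the bottom is blue on all 6 arrays.

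The comparison of Snf5-deficient lymphomas with wild-type CD8+ T cells asked which of these genes differed in tumour cells. Of 34 members 27 fell, 1 rose (Bst2) and 6 were not called (Ifih1, Eif2ak2, Oas1a, Oas3, Adar and Ifi35). Over all genes 7.71% fell and 9.13% rose (16.8% in either direction). The median change of the members was -1.61, against -0.07 for all genes. In 18 members all 5 lymphoma arrays lay below all 6 wild-type arrays, as they did for 5.7% of all genes, and in 0 they lay above, as for 7.09%. For these 18 the exact two-sided permutation test gave p = 0.00433, the smallest that 5 arrays against 6 allow. Any gene with such separated groups gets this value, so it restates the separation and adds no further evidence. For called members with overlapping groups the exact two-sided permutation test gave p = 0.00866 to p = 0.013. For the 6 members not called the exact two-sided permutation test gave p = 0.0823 (Adar) to p = 0.835 (Oas1a). Without wild-type arrays 1 and 6 there were 26 members lower and 1 higher, with a median of -1.72, and against arrays 1 and 6 alone 21 lower and 0 higher, with a median of -1.69. Zbp1, Bst2, Parp14, Ifi27l2a, Sp100 and 3 transcription factors lost their call against those 2 controls. The mean over the 34 members was 10.67 on wild-type array 1 and 10.68 on array 6, from 10.02 to 10.69 on wild-type arrays 2 to 5 and from 8.06 to 8.77 in the lymphomas. By role they were the highest wild-type arrays for the sensors (means of 10.56 and 10.65, against 9.28 to 10.35) and for the OAS family (10.87 and 10.87, against 8.58 to 10.34).

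**Figure D3:**
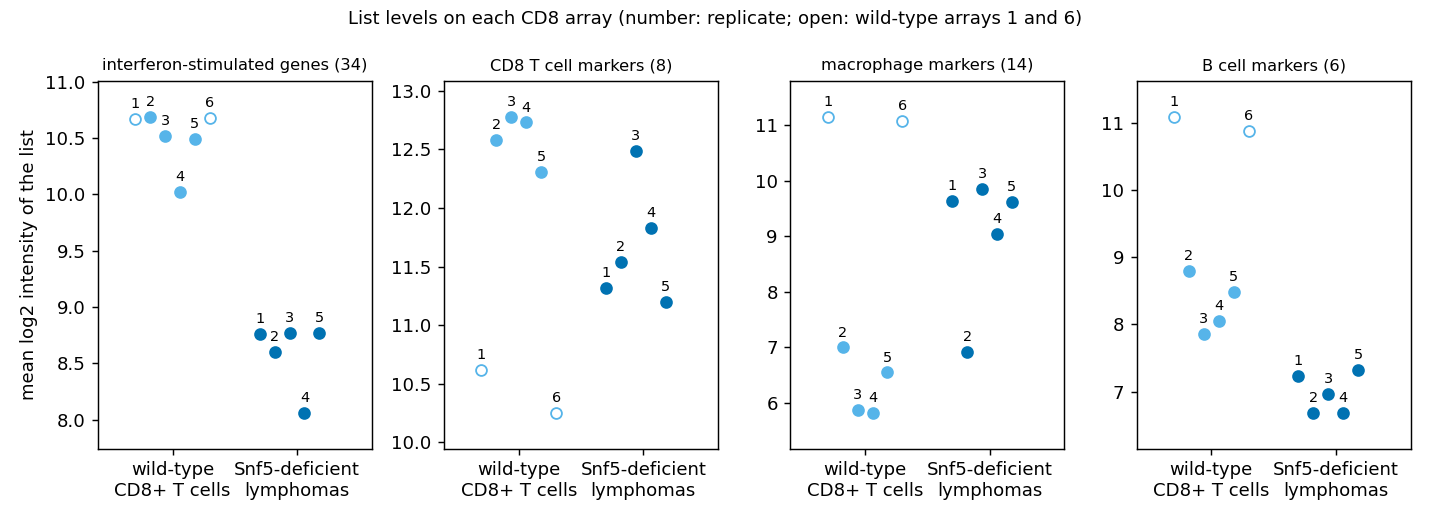
Mean log2 intensity (y axis) of the interferon-stimulated genes and of 3 marker lists on each T cell array; points are arrays with their replicate number, and open points are wild-type arrays 1 and 6. Arrays 1 and 6 lie low for CD8 T cell markers and high for macrophage and B cell markers, while the interferon-stimulated genes lie at 10.02 to 10.69 on all 6 wild-type arrays and at 8.06 to 8.77 in all 5 lymphomas.

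The lymphoma samples differed from wild-type cells in markers of other cells too. Over all genes 7.71% fell, and for 5.7% all lymphoma arrays lay below all controls. The NK cell list was at 8.23 to 10.12 in wild-type samples and at 6.67 to 7.18 in lymphomas, with 2 of 4 markers lower. Of 6 B cell markers 1 fell, but the median change was -2.45, and for 3 all lymphoma arrays lay below all controls. Of 6 dendritic cell markers 1 fell. The CD4 T cell list was at 5.87 to 7.66 in wild-type samples and at 5.55 to 5.91 in lymphomas, with 0 of 4 called and all 4 changes below 0. The macrophage list had a median change of 0.61 with 0 of 14 called, and 4 lymphomas (9.04 to 9.85) exceeded wild-type arrays 2 to 5 (5.82 to 7.00). The CD8 T cell list, at 10.25 to 12.78 in wild-type samples and 11.20 to 12.49 in lymphomas, had 1 of 8 markers lower. The part of such cells in the changes of the interferon-stimulated genes was not tested.

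All 4 transcription factors fell. Irf7 ranged from 10.15 to 10.80 in wild-type cells (median 10.52) and was at 8.72, 7.75, 9.58, 7.74 and 9.02 in the lymphomas, 3.86-fold lower (log2 -1.95, SE 0.33, adjusted p = 0.0031). Irf1 ranged from 11.87 to 12.95 (median 12.44) against 10.04, 11.71, 11.07, 10.39 and 10.27 (-1.71, SE 0.326, adjusted p = 0.00577). Neither gene's groups overlapped, though lymphoma 2 came close to the lowest wild-type array for Irf1. Irf9 was tightly held in wild-type cells, from 11.03 to 11.46 (median 11.25), and was at 9.94, 10.61, 10.93, 10.07 and 9.93 in the lymphomas (-0.94, SE 0.196, adjusted p = 0.00949). Stat2 ranged from 8.86 to 9.98 (median 9.60) against 8.01, 8.86, 8.88, 8.28 and 8.30, with overlap (-0.99, SE 0.243, adjusted p = 0.0198). Without wild-type arrays 1 and 6 all 4 remained called (Irf7 -1.95, Irf1 -1.98, Irf9 -1.01 and Stat2 -0.82). Against arrays 1 and 6 alone, with 2 controls, Irf1 (-1.18, adjusted p = 0.128), Irf7 (-1.95, adjusted p = 0.0514) and Irf9 (-0.78, adjusted p = 0.138) were not called. Stat2 also lost its call without lymphoma 1, 4 or 5 (adjusted p = 0.0516 to adjusted p = 0.0529) and for the mean of its probe sets (adjusted p = 0.116).

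Of the sensors 4 fell and 2 were not called. Ifi209 had the largest fall of all members: it ranged from 8.54 to 12.43 in wild-type cells (median 11.91) and was at 8.06, 4.28, 4.39, 5.37 and 8.30 in the lymphomas (-5.33, SE 0.924, adjusted p = 0.00355). On 2 of the 5 lymphoma arrays it was in the lowest 25% of the values, and the other 3 spread up to the lowest wild-type array. Ifi204, its neighbour on chromosome 1, fell by 2.54 (SE 0.611, adjusted p = 0.0177) with overlap, Zbp1 by 1.23 (adjusted p = 0.0216) and Dhx58 by 1.06 (adjusted p = 0.0224). Dhx58 ranged from 8.71 to 9.94 in wild-type cells (median 9.59) against 8.29, 7.98, 9.05, 8.12 and 8.57. Its call ended without wild-type arrays 1 and 6 (-0.83, adjusted p = 0.0517), with replicate number as a block (adjusted p = 0.0699), without lymphoma 1, 2 or 4 (adjusted p = 0.052 to adjusted p = 0.06) and for the mean of its probe sets (adjusted p = 0.129). That of Zbp1 ended without lymphoma 1, 4 or 5 (adjusted p = 0.0564 to adjusted p = 0.0589). Ifih1 (0.22, SE 0.391) and Eif2ak2 (0.26, SE 0.319), which with Dhx58 were the sensors that rose in MEFs, were not called.

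In the OAS family Oas2, Oasl1 and Oasl2 fell. Oasl2 ranged from 7.19 to 10.71 in wild-type cells (median 10.02) and was at 6.29, 7.22, 4.53, 4.24 and 5.70 in the lymphomas, with 1 lymphoma above the lowest control and 2 in the lowest 25% of the values (-3.85, SE 0.731, adjusted p = 0.00573). Oas2 ranged from 8.24 to 10.92 and then from 6.45 to 7.33 (-3.33, SE 0.45, adjusted p = 0.000905). Oasl1 ranged from 7.59 to 9.60 (median 8.85) against 7.13, 6.69, 6.05, 5.45 and 6.85 (-2.28, SE 0.424, adjusted p = 0.00522). Oas1a was not called (-0.09, SE 0.415): it was at 9.83 to 11.13 on wild-type arrays 2 to 5, at 12.04 and 12.34 on arrays 1 and 6 and at 10.60 to 11.45 in the lymphomas, and it was lower against arrays 1 and 6 alone (-1.18, adjusted p = 0.0199). Oas3 was not called (-0.95, SE 0.538).

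Both ISG15 system genes fell. Usp18 ranged from 10.77 to 12.37 in wild-type cells (median 11.60) and was at 7.46, 8.72, 8.60, 5.04 and 7.32 in the lymphomas, an 18.4-fold fall (log2 -4.20, SE 0.605, adjusted p = 0.00127). Lymphoma 4 was far below the other lymphomas, and even the highest lymphoma lay well under the lowest control. Trim25 ranged from 12.10 to 12.82 (median 12.52) against 11.85, 11.58, 11.30, 11.09 and 11.65 (-0.98, SE 0.176, adjusted p = 0.0043).

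Of 10 antiviral effectors 8 fell, 1 rose and 1 was not called. Ifit3 had the smallest adjusted p of all members: it ranged from 11.12 to 12.46 in wild-type cells (median 12.09) and was at 7.37, 6.38, 6.87, 7.13 and 7.75 in the lymphomas, a 29-fold fall (log2 -4.86, SE 0.285, adjusted p = 8.18e-06). Ifit1 ranged from 10.27 to 11.56 (median 10.51) against 7.17, 6.40, 6.71, 6.12 and 6.70, a 16.5-fold fall (log2 -4.04, SE 0.258, adjusted p = 1.14e-05). For both genes the lymphomas lay within a narrow band several log2 units under the controls. Mx1, a dynamin-like GTPase that blocks orthomyxoviruses, ranged from 10.31 to 12.04 (median 11.04) against 8.19, 6.01, 6.56, 5.56 and 8.12 (-4.28, SE 0.537, adjusted p = 0.000621). Rsad2 ranged from 9.24 to 11.85 (median 10.99) against 9.35, 8.53, 6.72, 6.21 and 9.16, with lymphoma 1 above the lowest control (-2.91, SE 0.653, adjusted p = 0.0129). Its neighbour Cmpk2 fell by 1.23 (adjusted p = 0.0116), Isg20 by 2.03 (adjusted p = 0.01) and Ifit2 by 1.50 (adjusted p = 0.00254), and Mx2 fell by 1.76 (adjusted p = 0.00119) to values in the lowest 25% on all 5 lymphoma arrays. Adar was not called (-0.75, SE 0.355, adjusted p = 0.181), and was called without wild-type array 5 (adjusted p = 0.00662), where it was lowest.

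Bst2 was the exception among the members. It ranged from 10.35 to 11.66 in wild-type cells (median 10.95) and was at 11.55, 12.11, 11.50, 12.08 and 12.28 in the lymphomas, a 1.94-fold rise with overlap (log2 0.96, SE 0.266, adjusted p = 0.0329). Lymphomas 2, 4 and 5 exceeded all controls, and lymphomas 1 and 3 lay just under the highest. Without wild-type arrays 1 and 6 the rise was 1.01 (adjusted p = 0.0389). The call ended without wild-type array 1, 2 or 4 or lymphoma 2, 4 or 5, each left out alone (adjusted p = 0.0519 to adjusted p = 0.0838).

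Among the other interferon-induced genes 6 of 7 fell and Ifi35 was not called (-0.31, SE 0.236), though it was lower without wild-type arrays 1 and 6 (-0.59, adjusted p = 0.0472). Rtp4 ranged from 10.88 to 11.36 in wild-type cells (median 11.02) against 7.71, 7.27, 8.27, 5.68 and 7.44, a 14-fold fall (log2 -3.80, SE 0.372, adjusted p = 0.000162). Lgals3bp varied little in wild-type cells, from 10.98 to 11.16 (median 11.05), and was at 9.07, 9.43, 9.61, 8.24 and 9.31 in the lymphomas (-1.94, SE 0.217, adjusted p = 0.000344). Parp14 ranged from 11.81 to 12.44 (median 11.99) against 9.92, 10.97, 11.40, 10.62 and 10.27 (-1.40, SE 0.251, adjusted p = 0.00426). These 3 genes separated the groups on every array. Ifi27l2a ranged from 12.64 to 13.31 (median 13.19) and fell into unequal lymphomas, at 12.45, 9.82, 12.06, 9.77 and 12.27 (-1.85, SE 0.511, adjusted p = 0.0325). That call ended without wild-type arrays 1 and 6 (-1.80, adjusted p = 0.0607), with the replicate block (adjusted p = 0.0719) and without wild-type array 2, 3 or 4 or lymphoma 2 or 4 (adjusted p = 0.0568 to adjusted p = 0.0703). Tor3a ranged from 8.53 to 10.02 (median 8.95) against 7.19, 6.77, 8.60, 8.13 and 7.56 (-1.47, SE 0.363, adjusted p = 0.02), and its call ended without lymphoma 1 (adjusted p = 0.0531) and with the block (adjusted p = 0.054). Sp100 fell by 1.11 (adjusted p = 0.0247), which was not called without wild-type array 2 or lymphoma 1, 2 or 5 (adjusted p = 0.0508 to adjusted p = 0.0609).

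**Figure D4:**
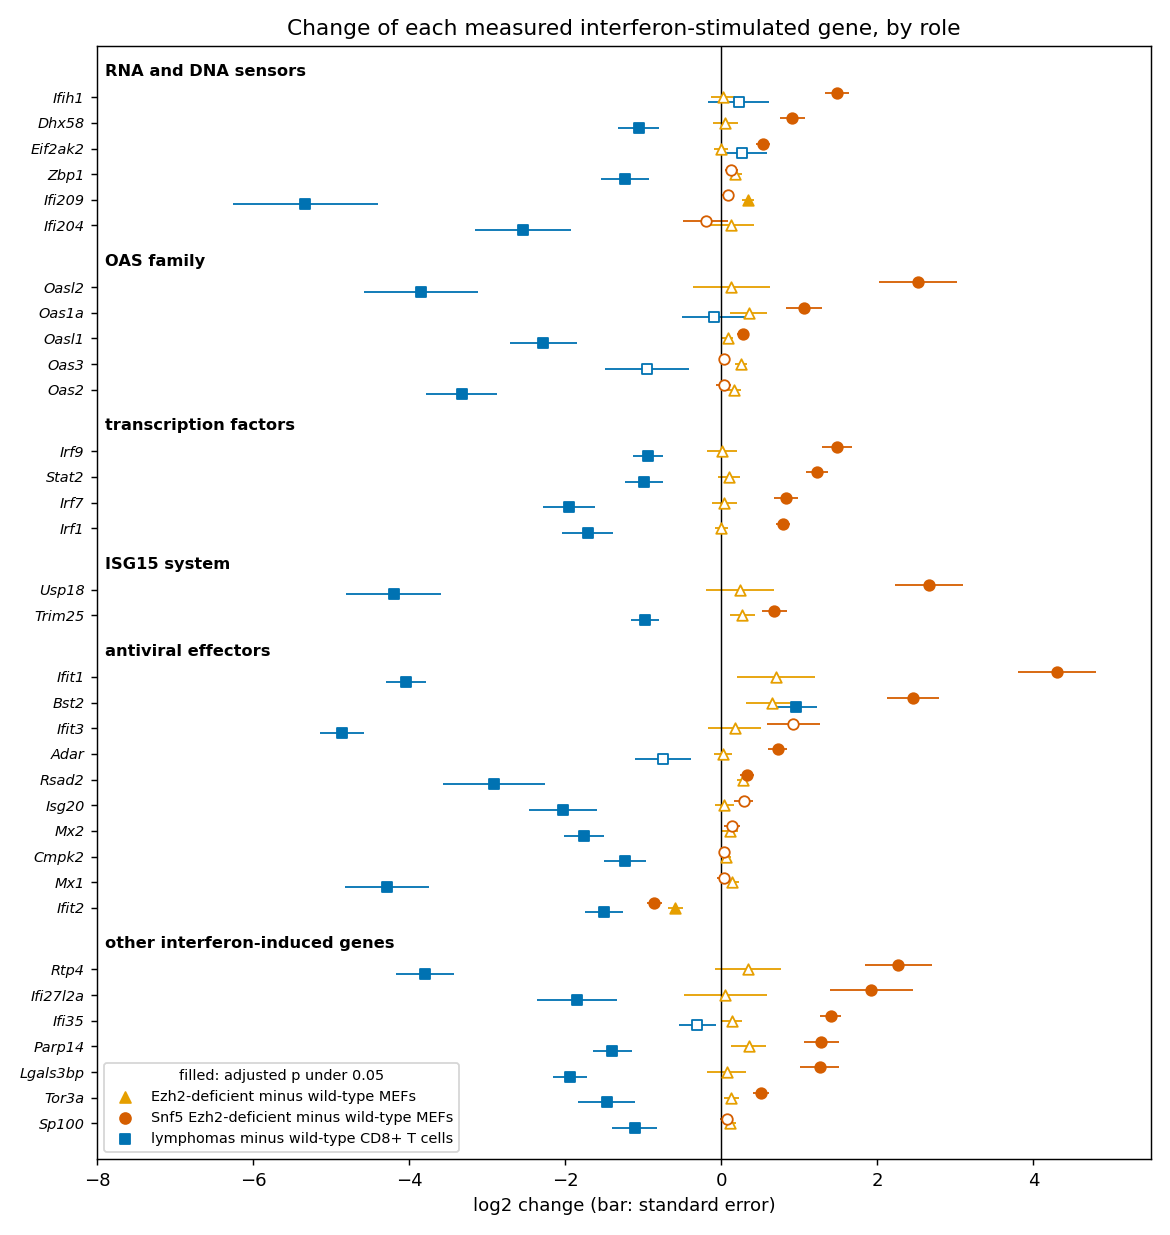
Log2 change (x axis, bars the standard error) of each measured member by role, for Ezh2-deficient MEFs (triangles), Snf5 Ezh2-deficient MEFs (circles) and lymphomas (squares); filled symbols had an adjusted p under 0.05. The transcription factors and the ISG15 system lie right of 0 in Snf5 Ezh2-deficient MEFs and left of 0 in lymphomas, Bst2 lies right in both and Ifit2 left in both.

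Both comparisons set a Snf5-deficient group against its own wild type and share no array. The 34 members fell into 6 patterns of calls. There were 16 that rose in Snf5 Ezh2-deficient MEFs and fell in lymphomas: Dhx58, Oasl1, Oasl2, Irf1, Irf7, Irf9, Stat2, Usp18, Trim25, Ifit1, Rsad2, Parp14, Rtp4, Ifi27l2a, Lgals3bp and Tor3a. Of all genes 1.5% did so, and 1.71% went the opposite way. Bst2 was higher in both, as were 1.75% of all genes, and Ifit2 was lower in both, as were 1.25%. Ifih1, Eif2ak2, Oas1a, Adar and Ifi35 rose in MEFs and were not called in lymphomas, and Zbp1, Ifi204, Ifi209, Oas2, Ifit3, Mx1, Mx2, Cmpk2, Isg20 and Sp100 fell in lymphomas and were not called in MEFs. Oas3 was called in neither. By role, 4 of 4 transcription factors and 2 of 2 ISG15 system genes were among the 16. The rest were 1 of 6 sensors, 2 of 5 OAS genes, 2 of 10 effectors and 5 of 7 other genes. The 7 members low on all 9 MEF arrays, where a rise could be hidden, were unevenly spread over the roles. They were the sensors Zbp1, Ifi204 and Ifi209, the OAS gene Oas3, the effectors Mx1 and Cmpk2, and Sp100. No transcription factor or ISG15 system gene was among them. The part of low signal in the contrast between roles was not tested. Without wild-type arrays 1 and 6 the 16 became 15, against those arrays alone 12, and with the replicate block 14.

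The difference between both effects was tested in a joint fit of 20 arrays. It was positive for 34 of 34 members and called for 26, where 11.1% of all genes were called higher and 13% lower. By limma 0 members were called lower, and 0 at an unadjusted p under 0.05. The median difference was 2.33, against 0.05 for all genes. The largest differences were those of Ifit1 (8.34, SE 1.23, adjusted p = 0.000119), Usp18 (6.87, SE 1.16, adjusted p = 0.000403), Oasl2 (6.37, SE 1.34, adjusted p = 0.00229) and Rtp4 (6.07, SE 1.06, adjusted p = 0.000557). The transcription factors differed by 2.22 to 2.78, each called. Not called were Ifih1 (1.26, adjusted p = 0.0669), Eif2ak2 (0.27), Ifi204 (2.35, adjusted p = 0.0571), Oas1a (1.16), Oas3 (0.99), Ifit2 (0.63), Bst2 (1.50, adjusted p = 0.209) and Ifi27l2a (3.77, adjusted p = 0.0524). The weights, 4.711 for MEF and 0.2814 for T cell arrays, were the same for every gene, so standard errors differ from those of the separate fits. With equal weights Bst2 and Ifi27l2a were called, and Adar and Sp100 were not. Except for Eif2ak2, the others not called were each called under some alternative. Across members the size of the MEF change and that of the lymphoma change showed little relation (r = -0.12, rho = 0.09, n = 34 genes). The genotypes of the compared groups also differed, since the MEFs lacked Ezh2 besides Snf5. In addition, the T cell comparison set tumour cells against normal cells, and their samples differed in markers of other cells. The cell type, the loss of Ezh2, the tumour state and the mix of cells therefore cannot be told apart in this difference.

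Genes above and beside the interferon-stimulated genes were read from lists of the pathway, 57 of 77 measured. Of 9 interferon genes 0 were called in Snf5 Ezh2-deficient MEFs and 0 in lymphomas by limma (0 and 2 at an unadjusted p under 0.05), where 13.2% of all genes rose in these MEFs and 7.71% fell in lymphomas. In Ezh2-deficient MEFs 1 of the 9 rose, Ifna1, by 0.32 (adjusted p = 0.0444), where 1.02% of all genes did, and its call ended under 12 of 16 alternatives (adjusted p up to 0.146). All Ezh2-deficient arrays lay above all controls for 5 of the 9, as for 15.7% of all genes. Ifna1 was also lower in Snf5 Ezh2-deficient than in Ezh2-deficient MEFs (-0.22, adjusted p = 0.0463), a call that ended under 8 of 15 alternatives. Ifnb1, the interferon first made by fibroblasts, was at 5.66, 5.56 and 5.85 in wild-type, 5.90, 5.79 and 5.71 in Ezh2-deficient and 5.56, 5.55 and 5.78 in Snf5 Ezh2-deficient MEFs, with overlap of all 3 groups. Low signal limits this list. On the MEF arrays Ifna11 (3.92 to 4.14), Ifnab (4.34 to 4.57) and Ifng (3.65 to 4.12) were as low as Mx1 (4.00 to 4.36). Ifna1, Ifna2 and Ifna9 were higher there, at 6.04 to 6.99. On the T cell arrays Ifna2 (2.95 to 4.20) and Ifna11 (3.17 to 3.64) were low, while Ifng ranged from 4.91 to 12.49. A change in the low genes could be hidden. Interferon protein was not measured. Of the receptor genes Ifnar1 and Ifnar2 were not called in MEFs (0.11 and -0.03) or lymphomas (-0.20 and -0.93, adjusted p = 0.593 and adjusted p = 0.09). Ifngr1 and Il10rb fell by 0.34 and 0.38 in Snf5 Ezh2-deficient MEFs and Ifngr1 by 2.40 in lymphomas (not called against arrays 1 and 6 alone, adjusted p = 0.145). Among 5 receptor genes 2 thus fell in these MEFs and 1 in lymphomas, where 14.3% and 7.71% of all genes fell.

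The kinase Jak1, which serves both interferon receptors, was called in the same directions as the transcription factors: it was at 10.82, 10.82 and 10.86 in wild-type and 11.30, 11.28 and 11.37 in Snf5 Ezh2-deficient MEFs (0.49, adjusted p = 0.000182), and ranged from 10.87 to 12.98 in wild-type T cells against 10.44 to 10.68 in lymphomas (-1.50, adjusted p = 0.0213). Against wild-type arrays 1 and 6 alone the lymphoma change was -0.46 (adjusted p = 0.0844), and without lymphoma 4 it was not called either (adjusted p = 0.0509). Jak2 (0.40) and Stat3 (0.35) also rose in MEFs, the other 2 of 3 called among 8 signalling genes, where 13.2% of all genes rose. In lymphomas Jak1 was the only 1 of the 8 called, where 7.71% of all genes fell. Of 10 genes between nucleic acid detection and interferon, Tlr3 (0.81) and the adaptor Myd88 (0.57) rose and Sting1, the adaptor of the DNA-sensing pathway, fell by 0.57 in MEFs. These counts, 2 higher and 1 lower, were near the shares of all genes (13.2% and 14.3%). In lymphomas 3 of the 10 fell, Sting1 (-2.50), Tlr7 (-2.57) and Ikbke (-1.68), where 7.71% of all genes fell. Tlr7 was not called without wild-type arrays 1 and 6 (adjusted p = 0.0545), and Sting1 and Ikbke were not called against arrays 1 and 6 alone (adjusted p = 0.176 and adjusted p = 0.316). Of 4 genes of nucleic acid clearance 2 fell in Snf5 Ezh2-deficient MEFs and 1 in lymphomas, where 14.3% and 7.71% of all genes fell. Samhd1, which removes the nucleotides needed for reverse transcription, fell in both (-0.43 and -0.91). Of 7 negative regulators of interferon signalling 1 rose in Snf5 Ezh2-deficient MEFs, near the share of all genes (13.2%). In lymphomas 3 of the 7 fell, where 7.71% of all genes fell. The feedback inhibitor Socs3 rose by 1.20 in MEFs and fell by 2.25 in lymphomas (not called against arrays 1 and 6 alone, adjusted p = 0.149), and the phosphatase gene Ptpn6 fell by 2.26 in lymphomas.

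Of 14 genes that lean towards interferon gamma, 6 rose in Snf5 Ezh2-deficient MEFs, where 13.2% of all genes rose. Cxcl10, a chemokine that draws T cells, was at 5.64, 5.67 and 5.92 and then at 9.40, 9.05 and 9.84 (12.9-fold, log2 3.69, SE 0.184, adjusted p = 1.72e-06), and its mutant arrays were in another order than those of Ifit1. Gbp2 (1.94), the peptide transporter gene Tap1 (1.59), the immunoproteasome genes Psmb9 (0.71) and Psmb8 (0.48) and Cxcl11 (0.47) rose as well, the call of Psmb8 ending without single arrays (adjusted p up to 0.113). In lymphomas Gbp2 fell by 1.41 and Cxcl11 rose by 2.42, from 4.20 to 4.64 in wild-type cells to 6.02, 5.34, 8.43, 8.71 and 5.53, and the other 12 were not called, so these counts were near the shares of all genes (7.71% lower and 9.13% higher). Against wild-type arrays 1 and 6 alone neither was called (Gbp2 adjusted p = 0.122, Cxcl11 adjusted p = 0.178).

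For 10 of the 34 members more than 1 probe set named the gene, and some of these disagreed. In lymphomas the other 2 probe sets of Dhx58 changed by -0.14 and -0.10, against -1.06 for the one reported, and the second of Stat2 by -0.49, against -0.99. In Snf5 Ezh2-deficient MEFs the second probe set of Rtp4 changed by 0.21, against 2.27, and in lymphomas by -2.32, against -3.80. The second probe set of Ifi209 changed by -5.66 in lymphomas and that of Cmpk2 by -2.54, both larger than the values reported.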

How the data were processed

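RNA levels were read on Affymetrix arrays of the Mouse 430A design. Values were computed with RMA per the submitters' processing notes, which name no version. What the authors deposited were linear RMA intensities, and their log2 was taken here. Of 22690 probe sets 64 controls were left out and 22626 tested. Symbols came from the platform annotation: 20380 probe sets named 1 gene, 691 several and 1555 none. The members and lists were chosen with earlier results of these data known. Each gene was represented by the probe set naming it alone with the highest mean over all arrays.

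The 23 arrays formed 6 title groups. The 3 repeated control hybridisations were counted once, after the offset between their copies (median -0.069) was removed from the second MEF set, which left 9 MEF and 11 T cell arrays. The error of that offset is not in the standard errors. Differences were tested by lmFit and eBayes of limma 3.58.1 in R 4.3.3, with 6 residual degrees of freedom for MEFs and 9 for T cells, Benjamini-Hochberg adjustment over all probe sets and a threshold of 0.05. The difference between both effects came from a joint fit with array weights by cell source (15 residual degrees of freedom). The number of arrays limits the precision: the median standard error was 0.0771 in MEFs and 0.236 in T cells. The fitting script was tested on simulated data.

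Values by array (for wild-type T cells the range and median) are given for the transcription factors, the 6 members with the largest change in Snf5 Ezh2-deficient MEFs and the 6 in lymphomas, each in that comparison, and those called in opposite directions, with some other members added to complete their role after their values were seen. Alternatives were leaving out each array, the replicate number as a block, quantile normalisation, median centring, a filter at the 25th percentile, an intensity trend, the mean of all probe sets of a gene, each MEF set on its own, equal weights and, chosen after seeing the data, leaving out or keeping only wild-type CD8 arrays 1 and 6.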

Additional observations from a re-analysis of the deposited data

Results flagged for a closer look

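In 4 of 68 groups of arrays a member had a single array far from the others, where chance gives about 1 in 20. Ifi209 was at 8.54 on wild-type CD8 array 3, the lowest of its group. Oas3 was at 8.32 on lymphoma array 4, the lowest lymphoma. Ifit1 was at 11.56 on wild-type CD8 array 2, the highest of its group, and Ifi27l2a was at 12.64 on wild-type CD8 array 5, the lowest.

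The change in Snf5 Ezh2-deficient MEFs differed from the change in lymphomas for 26 members by the joint limma fit. For Zbp1, Ifi209, Mx1, Cmpk2 and Sp100, low on all 9 MEF arrays, this mostly restates the fall in lymphomas. Of the 16 members called in opposite directions 15 were among the 26. The exception was Ifi27l2a, which was called with equal weights and under several other alternatives. The difference between both log2 changes was 1.97 for Dhx58, 2.56 for Oasl1, 6.37 for Oasl2, 2.50 for Irf1, 2.78 for Irf7, 2.42 for Irf9 and 2.22 for Stat2. It was 6.87 for Usp18, 1.67 for Trim25, 8.34 for Ifit1, 3.24 for Rsad2, 2.68 for Parp14, 6.07 for Rtp4, 3.19 for Lgals3bp and 1.98 for Tor3a.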

How the results depend on the processing

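No called change took the opposite sign under any alternative that was run. Of the changes that were not called, 30 took the opposite sign under some alternative, in 51 values that were not called either. For Ezh2-deficient against wild-type MEFs the count of members higher was 0 with the replicate block, with quantile normalisation, above the 25th percentile (26 members tested), for the mean of all probe sets and on the own set only, and from 0 to 1 without single arrays, as was the count lower. For Snf5 Ezh2-deficient against Ezh2-deficient MEFs the count lower was 0 with the replicate block, 2 with median centring and 0 above the 25th percentile, and from 0 to 2 without single arrays. For lymphomas the count higher was 0 against wild-type CD8 arrays 1 and 6 alone and from 0 to 1 without single arrays. Without single arrays the count higher in Snf5 Ezh2-deficient MEFs ranged from 20 to 24, that lower in lymphomas from 22 to 28, that of the difference from 26 to 29 and that of opposite calls from 13 to 18. Over the settings that were run, 20 of 23 calls in Snf5 Ezh2-deficient against wild-type MEFs were made each time, 16 of 20 against Ezh2-deficient MEFs, 17 of 28 in lymphomas, 24 of 26 for the difference and 0 of 2 in Ezh2-deficient MEFs. The causes were not tested. With the replicate number as a block there were 23 members higher in Snf5 Ezh2-deficient MEFs and 24 lower in lymphomas. The block ended the lymphoma calls of Dhx58, Ifi27l2a and Tor3a. The numbers were not taken to pair the samples: the deviations of same-numbered MEF arrays correlated at -0.217 to 0.149 and those of T cell arrays at 0.0799 to 0.312 (0.114 to 0.334 with group means over numbers 1 to 5), and 8 of 10 T cell, 4 of 6 Ezh2-deficient and wild-type and 2 of 6 Snf5 Ezh2-deficient and wild-type arrays correlated best with their own number. Signal limits 7 members that were among the lowest 25% of values on all 9 MEF arrays, where a change could be hidden.

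For Ezh2-deficient against wild-type MEFs single arrays left out gave changes of -0.09 to 0.16 for Ifih1, -0.03 to 0.11 for Dhx58, -0.04 to 0.03 for Eif2ak2, -0.31 to 0.38 for Ifi204, -0.12 to 0.29 for Oasl2 and -0.05 to 0.09 for Irf7. They gave -0.19 to 0.11 for Irf9, -0.23 to 0.48 for Usp18, -0.08 to 0.37 for Ifit3, -0.06 to 0.12 for Isg20, -0.05 to 0.07 for Adar and -0.13 to 0.61 for Rtp4. They gave -0.06 to 0.18 for Ifi27l2a and -0.19 to 0.20 for Lgals3bp. For Snf5 Ezh2-deficient against wild-type MEFs single arrays left out gave changes of -0.07 to 0.12 for Oas2, -0.03 to 0.08 for Oas3, -0.04 to 0.07 for Mx1 and -0.03 to 0.08 for Cmpk2. For Snf5 Ezh2-deficient against Ezh2-deficient MEFs single arrays left out gave changes of -0.11 to 0.03 for Zbp1, -0.58 to 0.11 for Ifi204, -0.08 to 0.15 for Mx2, -0.04 to 0.15 for Rsad2, -0.09 to 0.03 for Cmpk2 and -0.08 to 0.01 for Sp100. For lymphomas against wild-type CD8 cells single arrays left out gave changes of -0.07 to 0.39 for Ifih1, -0.01 to 0.38 for Eif2ak2 and -0.35 to 0.15 for Oas1a. With quantile normalisation the changes in Ezh2-deficient MEFs were -0.02 for Irf7, -0.01 for Cmpk2 and -0.01 for Ifi27l2a, and Cmpk2 differed by 0.04 between both mutants. For the mean of all probe sets they were 0.02 for Eif2ak2 in Ezh2-deficient MEFs, 0.01 for Zbp1 and -0.06 for Rsad2 between both mutants, and -0.03 for Eif2ak2 in the difference of effects. Against wild-type CD8 arrays 1 and 6 alone the lymphoma changes were -0.24 for Ifih1, -0.14 for Eif2ak2 and 0.25 for Ifi35, and that of Oas1a was 0.45 without these arrays and 0.15 with the replicate block.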
